A study of Mus musculus with 8 samples.

Results

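The genes Tcf7, Lef1, Tox, Tox2 and Tox4, which encode transcription factors with a DNA-binding HMG box, were followed through 4 progenitor populations of mouse marrow. The rows were chosen by gene symbol, and all 5 were found among the 22878 symbols of the tables, each on 1 transcript row. The 8 libraries, 2 per population, came from C57BL/6 mice, an inbred strain; the labels name no altered allele and no treatment, and state neither ages nor whether the 2 libraries of a population came from separate mice. All populations were lineage-negative, CD127-positive and Kit-positive. Common lymphoid progenitors (CLP) also carried Flt3 and Sca-1 and lacked integrin α4β7, whereas common helper-like innate lymphoid progenitors (ChILP) carried α4β7 and lacked both Flt3 and ST2. The ChILP gate was divided further into PD-1+ cells without CCR6, labelled as non-LTi progenitors of innate lymphoid cells (ILCs), and CCR6+ cells without PD-1, labelled as progenitors of LTi (lymphoid tissue inducer) cells. CLP and ChILP were prepared by depletion of lineage-positive cells, PD-1+ and CCR6+ cells by magnetic capture of cells bearing α4β7. The route is therefore the same within each comparison named in the study's design (CLP with ChILP, and PD-1+ with CCR6+ cells). It differs when PD-1+ or CCR6+ cells are set against CLP or ChILP.

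The TCF and LEF proteins bind DNA through 1 HMG box and can recruit β-catenin, which is stabilised by Wnt signals, or Groucho corepressors of the TLE family. TCF-1, the product of Tcf7, acts early in T cells and in ILC progenitors, and its close relative LEF1 overlaps with it in function in T cells. The TOX proteins carry a related HMG box that recognises DNA structure more than sequence. TOX is required for ILC, NK and CD4 T cell development, TOX2 acts in NK and follicular helper T cells, and TOX4 is a widely expressed member found with the PTW/PP1 phosphatase complex. Tcf7l1 and Tcf7l2 complete the TCF family and Tox3 the TOX family; they were read beside the 5 genes. On GRCm38, Tcf7 (row NM_009331) spans chr11:52252371-52283014, Lef1 (NM_010703) chr3:131110471-131224356, Tox (NM_145711) chr4:6686353-6991557, Tox2 (NM_001098799) chr2:163203125-163324170 and Tox4 (NM_023434) chr14:52279146-52296401.

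The close kinship of the genes bears on whether 50-base reads can be assigned to the right member, so a 90-base coding stretch in 1 exon is shown for each. Coordinates are on GRCm38 from GENCODE, letters run 5′ to 3′ on the coding strand, and the stretches were read from the GENCODE transcripts. The first pair lies in the HMG box of TCF-1 (chr11:52256958-52257047, minus strand, exon 7) and of LEF1 (chr3:131194689-131194778, plus strand, exon 8), with the bases that differ between the pair in capitals.
Tcf7: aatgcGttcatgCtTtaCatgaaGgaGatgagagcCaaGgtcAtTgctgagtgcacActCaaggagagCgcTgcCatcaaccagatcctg
Lef1: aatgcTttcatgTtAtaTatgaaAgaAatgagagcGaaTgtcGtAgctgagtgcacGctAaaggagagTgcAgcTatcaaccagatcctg
The pair differed at 15 of 90 bases (83.3% identical), spread so that only 2 of 30 codons encoded another amino acid. The next 3 cover a lysine-rich run and the start of the HMG box in Tox (chr4:6722226-6722315, minus strand, exon 5), Tox2 (chr2:163315845-163315934, plus strand, exon 5) and Tox4 (chr14:52287354-52287443, plus strand, exon 6); capitals mark where Tox and Tox2 differ from each other, and where Tox4 differs from Tox.
Tox: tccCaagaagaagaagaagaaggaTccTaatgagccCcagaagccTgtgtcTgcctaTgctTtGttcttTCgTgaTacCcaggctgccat
Tox2: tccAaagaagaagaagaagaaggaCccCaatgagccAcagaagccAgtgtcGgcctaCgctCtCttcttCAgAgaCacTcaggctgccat
Tox4: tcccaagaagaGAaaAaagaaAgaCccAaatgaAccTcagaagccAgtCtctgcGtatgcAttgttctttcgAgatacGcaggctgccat
Tox and Tox2 differed at 14 of 90 bases, and none of their 29 whole codons encoded another amino acid. Tox4 differed from Tox at 14 of the 90 bases. Between Tcf7 and Tox, the most alike 90-base coding stretches that could be found were 46.7% identical. Even so, the longest run of bases shared by the Tcf7 and Lef1 transcripts was 17 and by Tox and Tox2 20, and no 50-base window of any member occurred in another member. Windows shared with other genes made up 0 of 2422 for Tcf7, 0 of 1626 for Tox2, 5.39% for Tox (Gm11802), 33.8% for Lef1 (Gm43352) and 26.6% for Tox4 (16 genes, Mettl3 and Rab2b among them). The GENCODE transcripts were longer than the deposited rows, 3482 against 2457 bases for Lef1, 3961 against 2852 for Tox and 5350 against 4458 for Tox4. Where shared windows lie within the deposited rows, reads of Lef1 and Tox4 could be split depending on counting rules that are not given. The Tcf7 row, NM_009331, matched a transcript with a coding length of 909 bases, and the long and short forms of TCF-1 cannot be told apart from 1 row.

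The libraries held 7685188 to 13997897 reads assigned to genes, and 13619 genes were tested. Levels are in RPKM, read counts scaled to transcript length and library total, as the authors deposited them, so that levels of different genes can be set side by side. The gates were checked on their own genes: the 2 CLP libraries held 92.1 and 157 RPKM of Flt3 and the other libraries 5.10 to 10.3. Pdcd1, which encodes PD-1, measured 180.6 and 36.3 RPKM in PD-1+ replicates 1 and 2 against 0 and 1.10 in CCR6+ replicates 1 and 2. Ccr6 stood at 84.2 and 23.6 RPKM in CCR6+ cells, but also at 0 and 8.11 in PD-1+ replicates 1 and 2, although that gate excluded CCR6. By chi-square per gene on read counts, PD-1+ replicate 2 and CCR6+ replicate 2 were the nearest pair of libraries (18.3, against 79.7 between the PD-1+ replicates). This value weighs abundant transcripts most, such as the erythroid Hba-a1 (231127 and 208561 reads in the pair) and the myeloid Lyz2 (221578 and 226107). It therefore does not measure the likeness of the sorted progenitors alone. Because of this nearness, the results on the 5 genes, and on most gene lists in PD-1+ against CCR6+ cells, are given also without 1 or the other PD-1+ library. Summed over markers of myeloid and erythroid cells (15 genes), the libraries made by lineage depletion held 7971 to 25330.0 RPKM and the magnetically captured ones 70410.0 to 99900.0. Hba-a1 and Hba-a2 had nearly equal counts in every library, as had Hbb-b1 and Hbb-b2, so the sums may hold the same reads more than once. Elane and Mpo went the other way. Their means were 2422 and 2968 RPKM in CLP and 3077 and 3799 in ChILP. In PD-1+ cells they were 452 and 321, and in CCR6+ cells 597 and 429.

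Tcf7 had few reads in CLP and was, with Tox2, the highest of the 5 genes in ChILP and PD-1+ cells. Its level was 0.546 and 1.11 RPKM in CLP, 58.5 and 102 in ChILP, 238 and 45.9 in PD-1+ cells and 20.4 and 12.1 in CCR6+ replicates 1 and 2. Both CLP libraries were lowest, both CCR6+ libraries lay between, and ChILP and PD-1+ overlapped. Behind the CLP values stood 13 and 36 reads, against 2378 and 3505 in ChILP.

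Lef1 followed the same order of population means at lower levels. It stood at 1.64 and 2.23 RPKM in CLP, 6.75 and 9.04 in ChILP, 21.1 and 4.41 in PD-1+ cells and 5.52 and 2.88 in CCR6+ replicates 1 and 2. The PD-1+ and CCR6+ libraries overlapped, since PD-1+ replicate 2 lay below CCR6+ replicate 1, and the CLP libraries were below all others.

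Tox was present in CLP already, and its range across populations was narrower than that of Tcf7. The values were 3.64 and 6.59 RPKM in CLP, 24.1 and 49.7 in ChILP, 106 and 23.2 in PD-1+ cells and 11.1 and 5.99 in CCR6+ replicates 1 and 2. CCR6+ and CLP libraries overlapped, and every ChILP and PD-1+ library lay above both.

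Tox2 was the lowest of the 5 by its mean in CLP and close to Tcf7 in ChILP. It stood at 0.167 and 1.10 RPKM in CLP (3 and 27 reads), 45.6 and 125 in ChILP, 201 and 39.2 in PD-1+ cells and 8.94 and 4.05 in CCR6+ replicates 1 and 2. Populations other than ChILP and PD-1+ did not overlap.

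Tox4 stayed within a narrow band, with 17.9 and 22.9 RPKM in CLP, 23.5 and 19.9 in ChILP, 14.2 and 16.2 in PD-1+ cells and 15.9 and 15.5 in CCR6+ replicates 1 and 2. The captured libraries were the lower ones on this scale. RPKM is not corrected for a few very abundant transcripts taking up reads: over all genes the median log2 ratio of mean RPKM was -0.28 for PD-1+ and -0.43 for CCR6+ cells against CLP, while edgeR's median log2 fold changes, scaled by TMM, were -0.02 and -0.09. On that scale Tox4 differed from CLP by -0.14 and -0.04.

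Ordered by mean, Tcf7, Lef1, Tox and Tox2 all ran from PD-1+ (141.9 ± 135.9, 12.8 ± 11.8, 64.7 ± 58.6 and 120.1 ± 114 RPKM; mean ± SD, n = 2) through ChILP (80.3 ± 30.8, 7.90 ± 1.62, 36.9 ± 18.1 and 85.3 ± 56.2) and CCR6+ (16.2 ± 5.87, 4.20 ± 1.87, 8.52 ± 3.58 and 6.50 ± 3.45) to CLP (0.826 ± 0.396, 1.93 ± 0.417, 5.11 ± 2.09 and 0.634 ± 0.661). The libraries of PD-1+ and ChILP, the neighbours at the top, overlapped for all 4, and this pair was not tested. Each step of this order crosses the route of enrichment, so route and population cannot be told apart in it. In bulk libraries, fewer cells expressing a gene and less RNA per cell cannot be told apart.

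**Figure D1:**
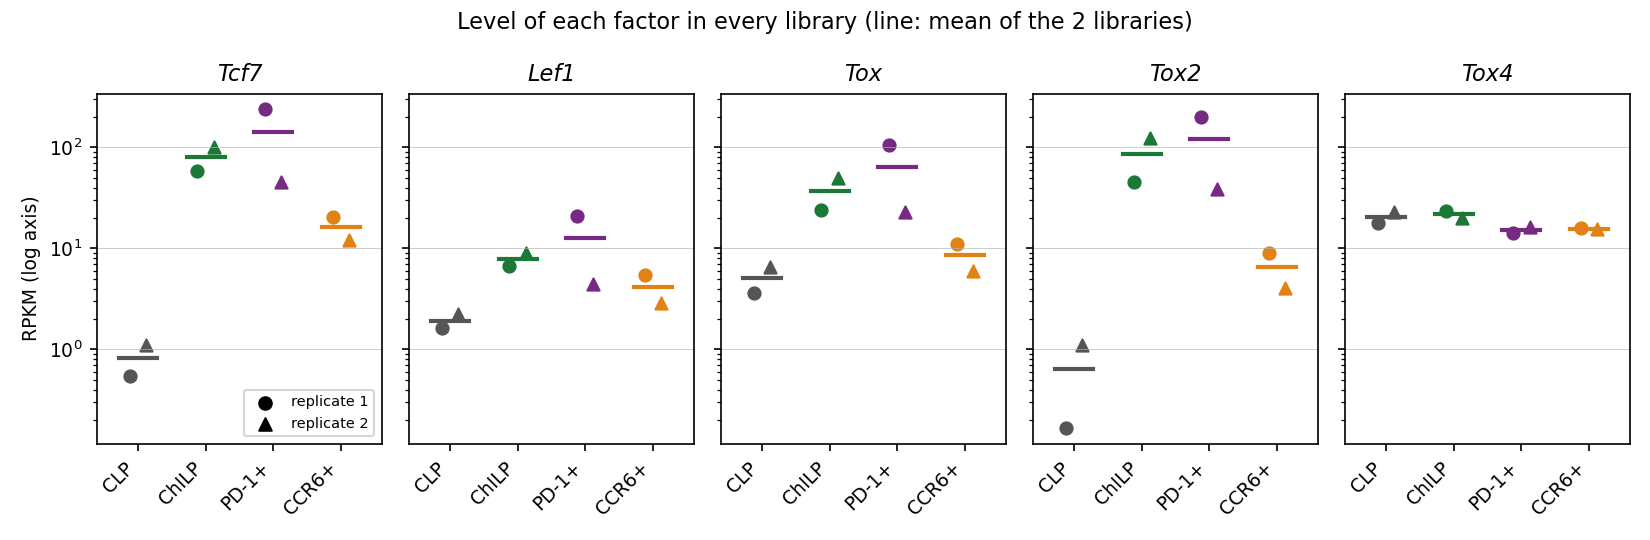
RPKM of Tcf7, Lef1, Tox, Tox2 and Tox4 in every library on a log axis, with replicate 1 as circles, replicate 2 as triangles and the mean of each population as a line. Tcf7 runs from 0.546 RPKM in CLP to 238 in PD-1+ replicate 1, while Tox4 stays between 14.2 and 23.5 RPKM.

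The step from CLP to ChILP was the first question of the study's design. In ChILP the libraries of Tcf7, Lef1, Tox and Tox2 all lay above those of CLP, 4 of the 5 genes, where 17.0% of all genes tested did so. The edgeR log2 fold changes were 6.63 (SE 0.86) for Tcf7, 7.05 (SE 1.11) for Tox2, 2.92 (SE 0.71) for Tox and 2.09 (SE 0.70) for Lef1, and 0.15 (SE 0.21) for Tox4. From pooled reads, the ChILP rate was 90.3 times that of CLP for Tcf7 (95% Clopper-Pearson interval 68.2 to 122.1, 5883 against 49 reads) and 116 times for Tox2 (81.1 to 172.1, 4629 against 30 reads); these intervals cover counting error only. Leaving out 1 library moved the fitted fold of Tox2, 132.8, to 487.6 without CLP replicate 2 and to 70.9 without ChILP replicate 2, and that of Tcf7, 99.4, to 144.2 and 72.3.

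None of the 5 passed edgeR's quasi-likelihood test after Benjamini-Hochberg adjustment over all genes, a threshold that 0.00734% of genes passed on the higher side. Adjusted p was 0.059 for Tcf7, 0.085 for Tox2, 0.29 for Tox, 0.66 for Lef1 and 1 for Tox4. At an unadjusted p under 0.05, 4 of the 5 were higher in ChILP against 2.79% of all genes, and Tcf7 (6.06e-05) ranked 13 and Tox2 (0.000224) ranked 35 by p. Whether Tcf7 was called depended on the setting. With edgeR its adjusted p was 0.047 with a filter of at least 5 RPKM in 2 libraries, 0.11 with a replicate block and 0.15 with no filter. Without any 1 ChILP or CLP library, its log2 fold change stayed between 6.17 and 7.17. DESeq2's Wald test, run as an alternative, called Tcf7, Tox and Tox2 (adjusted p 3.65e-21, 0.000534 and 2.71e-07).

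Within the PD-1+ and CCR6+ parts of the ChILP gate, Tcf7, Tox and Tox2 lay higher in both PD-1+ libraries than in either CCR6+ library, 3 of the 5 genes, against 19.0% of all genes tested. The log2 fold changes were 3.02 (SE 0.70) for Tcf7, 2.82 (SE 0.70) for Tox and 4.11 (SE 0.92) for Tox2. Lef1, at 1.50 (SE 0.68), overlapped, and Tox4 stood at -0.10 (SE 0.21). With edgeR the adjusted p was 0.66 for Tcf7, 0.69 for Tox, 0.64 for Tox2, 0.85 for Lef1 and 0.97 for Tox4. In this comparison 0% of genes were called, and 801 of 13619 had an unadjusted p under 0.05, 4.08% higher and 1.81% lower. At that unadjusted level 3 of the 5 were higher in PD-1+ cells, against 4.08% of all genes. DESeq2's Wald test called 131 genes here, Tcf7, Tox and Tox2 among them (adjusted p 0.000425, 0.00269 and 0.0353).

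The size of these differences rested on which PD-1+ library was used. PD-1+ replicate 1 exceeded replicate 2 by 5.19 times for Tcf7, 4.79 times for Lef1, 4.57 times for Tox and 5.13 times for Tox2, but stood at 0.877 times for Tox4. Pdcd1, the gene of the sorted marker, exceeded by 4.98 times and Gata3, a factor required for ILCs, by 5.03 times, while the median over 8874 genes was 1.08 and only 1.79% of them reached 4 times. Divided by Pdcd1, Tcf7 was thus level between the PD-1+ libraries, at 1.32 and 1.26.

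Without PD-1+ replicate 2, the log2 fold changes over CCR6+ cells were 3.74 for Tcf7, 3.51 for Tox, 4.83 for Tox2 and 2.20 for Lef1, and Tcf7 was called (adjusted p 0.034), with Tox at 0.058 and Tox2 at 0.080. Without PD-1+ replicate 1 they were 1.49, 1.43, 2.59 and 0.06, with adjusted p of 1 for all 4. Without replicate 2 of both populations they were 3.34 for Tcf7, 3.06 for Tox, 4.29 for Tox2 and 1.73 for Lef1, with adjusted p from 0.094 to 0.20. In all of these Tcf7, Tox and Tox2 remained higher in PD-1+ cells, and the larger value of Lef1 depended on replicate 1. Leaving out CCR6+ replicate 1 or 2 gave 3.45 and 2.68 for Tcf7 and 2.05 and 1.09 for Lef1.

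Set against CLP, the common starting point, PD-1+ cells had higher levels of 4 of the 5 genes at an adjusted p under 0.05, where 4.47% of all genes were called higher. Tcf7 rose by 7.63 on the log2 scale (SE 0.89, adjusted p 0.010), Tox2 by 7.72 (SE 1.13, 0.013), Tox by 3.90 (SE 0.74, 0.024) and Lef1 by 2.95 (SE 0.72, 0.049). In CCR6+ cells only Tcf7 of the 5 was called higher, at 4.61 (SE 0.81, adjusted p 0.015), against 6.59% of all genes. Tox2 stood at 3.61 (SE 1.03, 0.060), Lef1 at 1.46 (SE 0.70, 0.22) and Tox at 1.08 (SE 0.68, 0.35). The CCR6+ libraries of Tox2 and Lef1 also lay above both CLP libraries, as in 2698 of 13619 genes, and those of Tox overlapped. Here the route of enrichment and the population cannot be told apart, and these comparisons share the CLP libraries with each other and with the first.

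Single libraries decided several of these calls. Without CLP replicate 2, which reduced the number of genes called in PD-1+ against CLP from 995 to 8, adjusted p was 0.081 for Tcf7, 0.082 for Tox2, 0.12 for Tox and 0.22 for Lef1. Without CLP replicate 1 it was 0.094 for Tox and 0.18 for Lef1, and without PD-1+ replicate 1, where Lef1 stood at 1.54, 0.17 for Lef1. Without PD-1+ replicate 1, Tcf7 rose by 6.12, Tox2 by 6.22 and Tox by 2.54 (adjusted p 0.0051, 0.016 and 0.035). Without PD-1+ replicate 2, where 586 genes were called, all 4 rose, Tcf7 by 8.34, Tox2 by 8.43, Tox by 4.58 and Lef1 by 3.65 (adjusted p from 0.0020 to 0.018). Tcf7 in CCR6+ against CLP had an adjusted p of 0.061 or 0.087 once CLP replicate 1 or 2 was left out, and of 0.0502 once CCR6+ replicate 1 was left out. The direction of Tcf7, Lef1, Tox and Tox2 stayed the same without any 1 library.

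**Figure D2:**
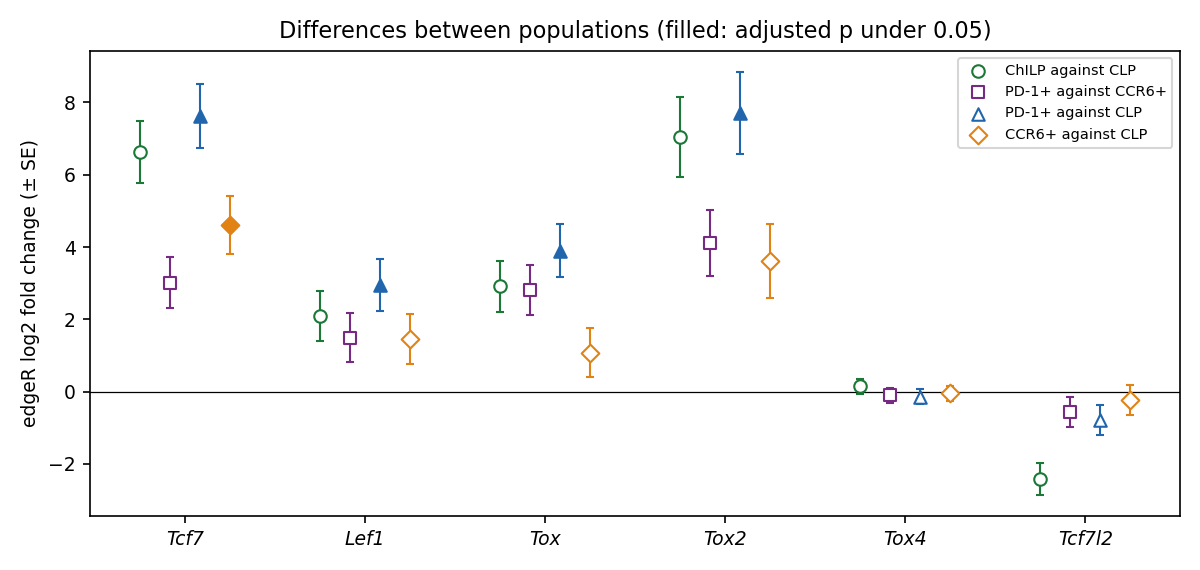
edgeR log2 fold changes with their SE for the 5 genes and Tcf7l2 in 4 comparisons; filled symbols have an adjusted p under 0.05, and the comparisons against CLP by PD-1+ and CCR6+ cells cross the route of enrichment. No symbol of ChILP against CLP or PD-1+ against CCR6+ is filled, and Tox4 lies near 0 throughout.

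The member with the largest share of each family was another in CLP than in ChILP and PD-1+ cells. Tcf7l2 (NM_001142920, the row with most reads of 8 that share them), which encodes a TCF active in many tissues, measured 5.43 and 8.89 RPKM in CLP, 1.05 and 1.51 in ChILP, 3.08 and 3.70 in PD-1+ cells and 5.37 and 4.24 in CCR6+ replicates 1 and 2, and no neighbouring populations overlapped. Its log2 fold change from CLP to ChILP was -2.41 (SE 0.43, adjusted p 0.11), opposite in sign to that of Tcf7, and between PD-1+ and CCR6+ cells -0.56 (SE 0.41, 0.87). Of the summed RPKM of the 4 TCF and LEF genes, Tcf7l2 made up 65.6% and 68.1% in CLP and 1.16% to 6.85% in ChILP and PD-1+ libraries, with 17.1% and 21.3% in CCR6+ libraries. Tcf7 made up 6.59% and 8.47% in CLP, 85.0% to 90.2% in ChILP and PD-1+ and 65.1% and 60.7% in CCR6+ libraries. Tcf7l1, which acts mostly as a repressor, stayed under 2 RPKM in every library, from 0 to 1.75.

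In the TOX family, Tox4 held 82.0% and 72.2% of the summed RPKM in CLP, and its share was 4.41% to 25.2% in ChILP and PD-1+ and 44.3% and 60.0% in CCR6+ libraries. Tox2 held 0.766% and 3.48% in CLP and 48.9% to 64.2% in ChILP and PD-1+ libraries, against 24.9% and 15.7% in CCR6+ libraries. The family sum was 21.9 and 31.7 RPKM in CLP and 321.3 and 78.6 in PD-1+ replicates 1 and 2, while Tox4 itself stayed at 14.2 to 23.5 RPKM. Tox3 reached 1.11 RPKM in CLP replicate 2 and was at 0.301 or below in the other 7 libraries, at 0 in both PD-1+ libraries.

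**Figure D3:**
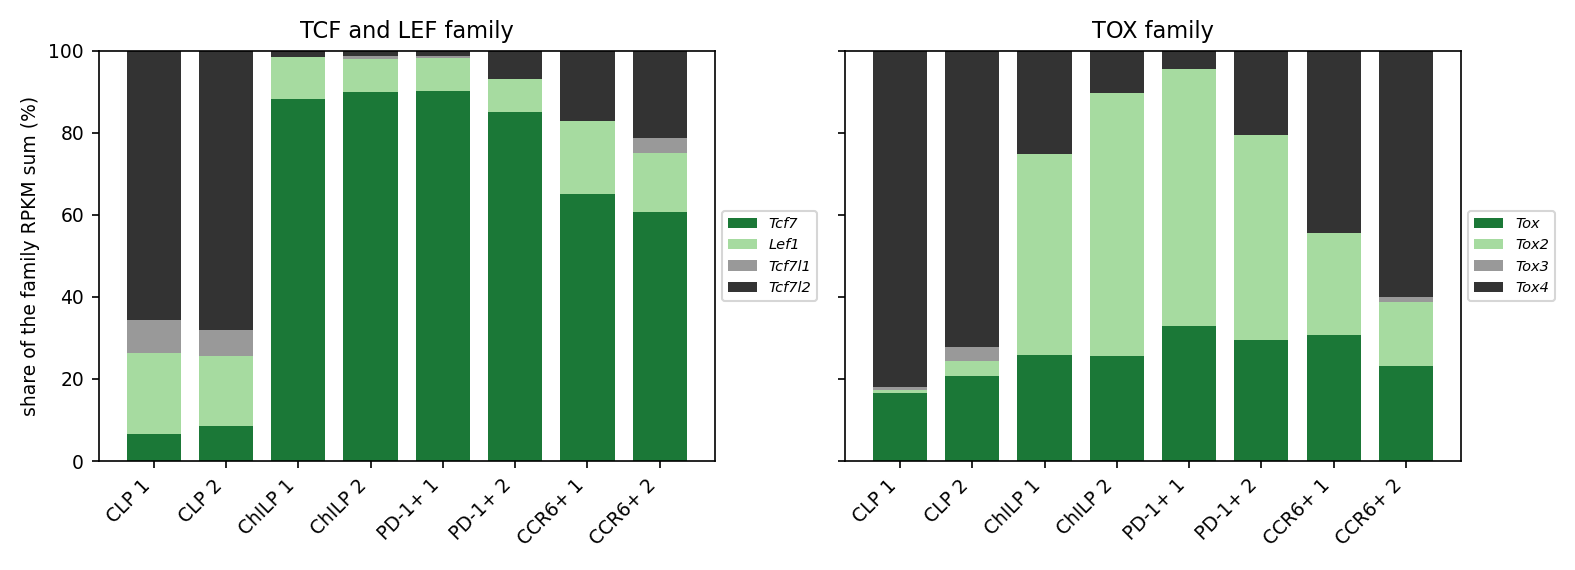
Share of each member in the summed RPKM of the TCF and LEF genes (left) and the TOX genes (right), in percent, for each library. Tcf7l2 fills 65.6% and 68.1% of the CLP bars on the left, and Tcf7 at least 85.0% of the ChILP and PD-1+ bars.

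Ratios of RPKM within a library, which are free of library scaling, showed which members kept step. Tcf7 over Tox was 2.43 and 2.06 in ChILP, 2.24 and 1.98 in PD-1+ cells and 1.85 and 2.02 in CCR6+ libraries, a narrow range given that the level of Tcf7 ran from 12.1 to 238 RPKM; in CLP it was 0.150 and 0.168. Tcf7 over Lef1 was 8.67 and 11.3 in ChILP and 11.3 and 10.4 in PD-1+, but 3.70 and 4.21 in CCR6+ and 0.334 and 0.497 in CLP libraries. Tox2 over Tox split the populations in the same way, at 1.69 to 2.52 in ChILP and PD-1+ libraries, 0.808 and 0.677 in CCR6+ and 0.046 and 0.167 in CLP. PD-1+ replicate 2, whose Tcf7, Lef1, Tox and Tox2 levels were far below those of replicate 1, lay nearer to PD-1+ replicate 1 and ChILP than to CCR6+ libraries in the last 2 of these ratios. These ratios were not tested.

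Across the 8 libraries the log2(RPKM + 1) values of Tcf7 and Tox2 had a Pearson r of 0.980, Tox and Tox2 0.972, Lef1 and Tox 0.958, Tcf7 and Tox 0.930, and Lef1 and Tcf7 or Tox2 0.923 in both cases. Tox4 had r from -0.30 to -0.18 with the other members. The libraries form 4 populations and share the same depth differences and the PD-1+ replicate difference, so the values are descriptions. Among 8952 other genes, the 5 nearest to Tcf7 were Rora (0.985), a nuclear receptor of ILCs, Skap1 (0.985), an adaptor of lymphocyte adhesion, Ahcyl2 (0.982), Tox2 (0.980) and Txk (0.978), a TEC family kinase. Nearest to Tox2 were Rora (0.990), Gata3 (0.987), Tcf7 (0.980), the zinc finger gene Bcl11b (0.980) and the LIM gene Lmo4 (0.979). Nearest to Tox were Lpar6 (0.987), Bcl2 (0.983), a survival gene, Nipal1 (0.982), Bcl11b (0.980) and Arg1 (0.976), which encodes arginase. Nearest to Lef1 were Pcmtd2 (0.977), Osbpl3 (0.968), Rgs3 (0.962), Tox (0.958) and Rtn4rl1 (0.957). Nearest to Tox4 were Gorasp2, Plekhj1, Mrpl37, Mdh2 and Tssc4 (0.970 to 0.982), and none of these 5 stood among the 5 nearest of another member.

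Several genes of a list drawn up as supported by TCF-1 in T cells and ILCs were high in the same libraries. The list of 14 also held Nfil3, which is read again below among the genes upstream of TCF-1 or TOX. Of the 14, 6 were higher and 0 lower in ChILP than in CLP at an unadjusted p under 0.05 (2.79% and 3.03% of all genes), with none called after adjustment. The median log2 fold change was 2.25 against 0.05 over all genes. Bcl11b (NM_001079883) had a log2 fold change of 9.16 (SE 1.17, adjusted p 0.059), from 3 and 0 reads in CLP to 764 and 1563 in ChILP, a ratio of pooled rates of 583 (95% Clopper-Pearson interval 199.3 to 2830.0). Rora stood at 5.54 (SE 0.81, 0.081), Gata3 at 5.25 (SE 0.77, 0.081) and Thy1, a surface protein of T cells and ILCs, at 4.87 (SE 0.70, 0.081).

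In PD-1+ against CCR6+ cells 8 of the 14 were higher and 1 lower at an unadjusted p under 0.05 (4.08% and 1.81% of all genes), again with none called, and the median was 1.29 against 0.01. Zbtb16, which encodes PLZF, stood at 4.77 (SE 0.82, adjusted p 0.36), Bcl11b at 4.23 (SE 0.81, 0.44), Gata3 at 3.95 (SE 0.72, 0.36) and Rora at 3.33 (SE 0.72, 0.60). The lower gene was Il2ra, the interleukin-2 receptor alpha chain, at 0 and 0.347 RPKM in PD-1+ cells and 4.10 and 3.02 in CCR6+ replicates 1 and 2; it was named after its values were seen. These values too depended on the PD-1+ library, since replicate 1 exceeded replicate 2 by 4.20 times for Bcl11b, 4.16 for Rora and 3.91 for Zbtb16. Without PD-1+ replicate 1, a setting added for this list after seeing the data, the median was 0.45 against -0.005 over all genes, and Gata3 stood at 2.45. Without PD-1+ replicate 2 the median was 1.82 against -0.04 over all genes, with Gata3 at 4.66, Bcl11b at 4.89 and Zbtb16 at 5.41. Tcf7 over Gata3 was 1.15 and 0.871 in ChILP, 0.753 and 0.731 in PD-1+ cells and 1.88 and 1.01 in CCR6+ libraries, higher in both CCR6+ than in both PD-1+ libraries.

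Against CLP, across the route of enrichment, 8 of the 14 were called higher in PD-1+ cells (Bcl11b, Gata3, Rora, Thy1, Cd3g, Zbtb16, Id2 and Nfil3). In CCR6+ cells 8 were called higher (Bcl11b, Gata3, Rora, Thy1, Cd3g, Zap70, Id2 and Nfil3). None was called lower in either. Of all genes, 4.47% and 6.59% were called higher and 2.83% and 4.79% lower. In the same comparisons 3 and 2 of 12 T cell markers, 3 and 3 of 9 NK markers, 2 and 3 of 12 B lineage markers and 2 and 5 of 15 myeloid and erythroid markers were called higher. Called lower were 3 and 3 of the B lineage markers, 2 and 2 of the myeloid and erythroid markers, and 0 of the T cell and NK markers. The part of such cells in the count of the 14 was not tested. In PD-1+ cells the count was 7 without PD-1+ replicate 1, 8 without replicate 2, and 0 without CLP replicate 2, and in CCR6+ cells it was 0 to 4 without any 1 of the CLP or CCR6+ libraries. Id2, an inhibitor of E proteins, rose by 4.30 (SE 0.50, adjusted p 0.0099) in PD-1+ and by 3.14 (SE 0.47, 0.010) in CCR6+ cells.

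Partners of the TCF and LEF proteins were read next. Of 16 tested genes for β-catenin, its cofactors and the Groucho corepressors, 0 had an unadjusted p under 0.05 in ChILP against CLP (2.79% of all genes were higher and 3.03% lower), and the median log2 fold change was 0.01. In PD-1+ against CCR6+ cells 2 were higher (4.08% of all genes), Bcl9 at 1.82 (SE 0.49, adjusted p 0.69) and the Groucho family gene Tle6 at 3.16 (SE 1.26, 0.82). Both were named for this after their values were seen, and the median of the list was 0.21. In 7 of the 16, both PD-1+ libraries lay above both CCR6+ libraries, against 19.0% of all genes. In 0 both lay below, against 1930 of 13619 genes. Ctnnb1, the β-catenin gene, had a mean of 43.0 RPKM in CLP, 30.4 in ChILP, 21.9 in PD-1+ and 16.0 in CCR6+ cells; the log2 fold change was -0.44 (SE 0.22, adjusted p 0.92) from CLP to ChILP and 0.39 (SE 0.22, 0.85) between PD-1+ and CCR6+ cells. Others past the naming rule were Tle6 at 1.45 and Bcl9l at -1.32 in ChILP against CLP, and Tle3 at 0.53, Hdac1 at 0.21 and Aes at 0.20 in PD-1+ against CCR6+ cells, all with an adjusted p of 0.85 or more. Against CLP, at an adjusted p under 0.05 here and in the next paragraphs, Ctnnb1, the deacetylase gene Hdac2 and the β-catenin cofactor gene Bcl9 fell in CCR6+ cells, by 1.09, 1.13 and 2.11 on the log2 scale, and Hdac2 fell by 1.09 in PD-1+ cells, 3 and 1 of the 16 (4.79% and 2.83% of all genes).

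Of 20 tested genes for Wnt reception and β-catenin control, 1 was lower in ChILP (Dvl2, a Dishevelled adaptor, at -0.76, adjusted p 0.85) and 1 higher in PD-1+ than in CCR6+ cells (Axin1, a scaffold of the β-catenin destruction complex, at 1.53, adjusted p 0.81) at an unadjusted p under 0.05, where 3.03% of all genes were lower and 4.08% higher. In 7 of the 20, both PD-1+ libraries lay above both CCR6+ libraries, against 19.0% of all genes. In 2 both lay below, as in 1930 of 13619 genes. Among the 7 were Gsk3b, Csnk1a1 and Dvl2, at 0.31, 0.21 and 0.26. Of 9 tested common Wnt target genes, 0 were higher and 1 lower in ChILP (Myc, at -0.51, adjusted p 0.84), and 0 were higher and 2 lower in PD-1+ than in CCR6+ cells (Ccnd1, encoding cyclin D1, at -1.04, SE 0.29, adjusted p 0.70, and Cd44 at -0.47, adjusted p 0.84), where 3.03% and 1.81% of all genes were lower. Axin2, the Wnt target in most common use, stood under 3 RPKM in all 8 libraries, at 2.99 in PD-1+ replicate 1 and 0.087 in replicate 2. Against CLP, Ccnd1 rose by 1.49 and Cd44 by 0.78 in CCR6+ cells, while Myc fell by 1.95 in PD-1+ and by 2.41 in CCR6+ cells.

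Among 13 genes known to act upstream of TCF-1 or TOX, in ChILP against CLP 1 was higher and 1 lower at an unadjusted p under 0.05 (2.79% and 3.03% of all genes). Notch1, whose signal induces Tcf7 in early T cells, stood at 29.1 and 40.0 RPKM in CLP and 5.36 and 8.26 in ChILP (log2 fold change -2.28, SE 0.33, adjusted p 0.081), the opposite direction to Tcf7. Hes1, a Notch target gene, stood at 1.44 (adjusted p 0.94), Ets1 at 0.71 (0.80) and Nfil3, which acts before TOX in ILC development, at 0.69 (0.94). In PD-1+ against CCR6+ cells 2 were higher (4.08% of all genes): Hes1 at 3.73 (SE 0.84, adjusted p 0.64), from 1.10 and 5.39 RPKM in CCR6+ to 74.7 and 18.7 in PD-1+ replicates 1 and 2, and Ets1 at 1.01 (0.70). Against CLP, Notch1 fell by 1.89 in PD-1+ and by 1.61 in CCR6+ cells, Nfil3 rose by 2.33 and 2.26 and Notch2 by 1.02 and 1.25, and Ets1 rose by 1.78 in PD-1+ cells. Dtx1, a Notch target gene with no read in CLP, was also called higher in both. The called genes made 4 of 13 higher in PD-1+ and 3 of 13 in CCR6+ cells (4.47% and 6.59% of all genes).

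Of the 5 PTW/PP1 genes read beside Tox4, 0 had an unadjusted p under 0.05 in either comparison of the design, with medians of -0.12 and -0.18. Of 22 tested other HMG-box genes, 1 was lower in ChILP than in CLP (3.03% of all genes) and 2 were higher in PD-1+ than in CCR6+ cells (4.08%). Sox4, an HMG-box factor of early lymphocytes, was both the lower one at -1.69 (SE 0.64, adjusted p 0.76) and 1 of the higher ones at 2.54 (SE 0.68, 0.69), with 36.4 and 88.6 RPKM in CLP and 1.39 and 5.23 in CCR6+ replicates 1 and 2; the other was Hmgxb3 at 0.87 (0.83). Against CLP, Sox4 fell by 3.87 and Sox6 rose by 2.45 in CCR6+ cells, and the histone chaperone gene Ssrp1 fell by 0.75 in PD-1+ and by 0.73 in CCR6+ cells.

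These lists in PD-1+ against CCR6+ cells were also read without 1 or the other PD-1+ library. Without PD-1+ replicate 1 the median log2 fold changes were 0.16 for partners, 0.22 for Wnt reception genes, 0.25 for upstream genes and -0.03 for other HMG-box genes. Without PD-1+ replicate 2 they were 0.23, 0.14, -0.14 and -0.005. Over all genes the medians were -0.005 and -0.04. Hes1 stood at 2.49 and 4.37 in these fits and Sox4 at 1.76 and 3.03, with no gene of these lists called.

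**Figure D4:**
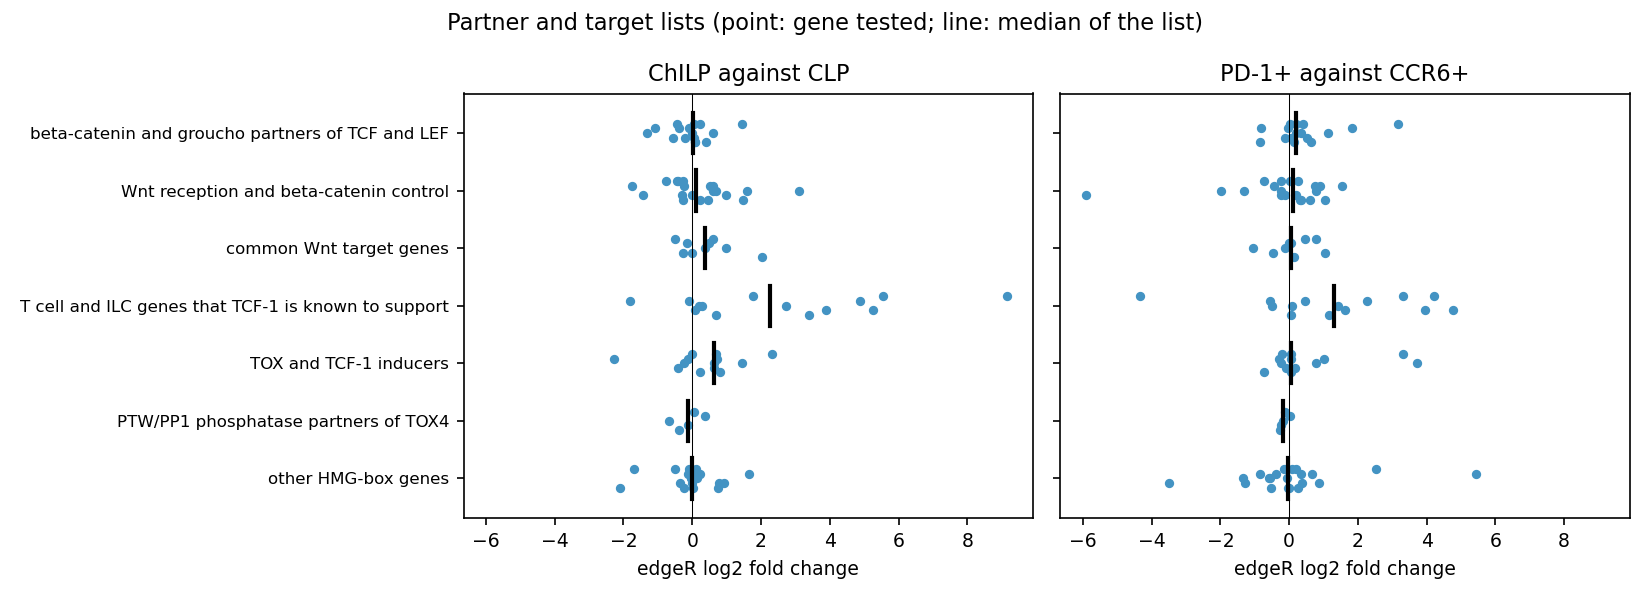
edgeR log2 fold changes of the tested genes of 7 lists in both comparisons of the design, 1 point per gene, with the median of each list as a line. The list of genes that TCF-1 is known to support has medians of 2.25 and 1.29, and the medians of the other lists lie between -0.18 and 0.63.

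Since mature T and NK cells also express Tcf7, Lef1 and Tox, their markers were read in the same libraries. The summed level of 12 T cell markers was 27.8 to 37.8 RPKM in CLP, 39.5 to 64.4 in ChILP, 89.9 to 131.5 in PD-1+ and 71.6 to 75.4 in CCR6+ libraries, with up to 3, 4, 1 and 2 of the 12 at 0 in a library. Cd3e, which encodes a defining chain of the T cell receptor complex, read 0.610 and 0 RPKM in ChILP, where Tcf7 was at 58.5 and 102. In PD-1+ cells Cd3e was at 5.99 and 6.00 RPKM, and in CCR6+ cells it was at 7.36 and 8.94. Trat1, which encodes a T cell receptor adaptor, was like Tcf7 highest in PD-1+ replicate 1, at 1.50 and 1.40 RPKM in CLP, 21.8 and 35.2 in ChILP, 57.3 and 12.2 in PD-1+ cells and 0 and 1.91 in CCR6+ replicates 1 and 2. Themis, Cd247, Cd28 and Cd6 were also higher in PD-1+ replicate 1 than in replicate 2 (7.05 against 2.78, 23.9 against 7.59, 6.34 against 2.78 and 5.465 against 2.68 RPKM). Lower in replicate 1 than in replicate 2 were Cd3g (11.5 against 14.9 RPKM), Cd3d (2.845 against 9.39), Cd4 (6.82 against 12.75), Cd8a (0 against 1.87), Cd8b1 (2.87 against 13.9) and Cd5 (1.43 against 3.06). The sum of 9 NK markers was 9.03 to 13.7, 17.6 to 17.9, 43.8 to 72.2 and 42.6 to 53.4 RPKM, in the order CLP, ChILP, PD-1+, CCR6+. The sum of 12 B lineage markers was 1038 to 1737 RPKM in CLP, 99.1 to 128.3 in ChILP, 289.5 to 310.6 in PD-1+ and 349 to 350.8 in CCR6+ libraries. The part of T cell, NK, B lineage, myeloid and erythroid transcripts in these differences was not tested.

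Promoter windows of RefSeq (GRCm38.p6), from 250 bases before to 50 after a start, were listed for 4 of the 5 genes. The letters CTTTGNT, which TCF and LEF proteins recognise, were looked for on both strands; 18.6% of 32851 windows held them, as did 0 of 2 windows of Tcf7, 0 of 4 of Lef1, 0 of 1 of Tox4 and 2 overlapping windows among 5 of Tox2. These 2 windows belong to an alternative start inside the Tox2 locus, and the 3 windows nearest the first base of the gene held none. The match is shown because Tox2 was the member whose levels were most like those of Tcf7; it lies on chr2:163225302-163225331, printed on the plus strand with the match, read from the opposite strand, in capitals.
Tox2 alternative start: gatggatttggATCAAAGaggttaaataac
The letters NGATAA, recognised by GATA factors, were in 25.3% of all windows and in 1 of 2 windows of Tcf7, 1 of 4 of Lef1 and 0 of 5 of Tox2; CAGNTG, recognised by E proteins, was in 51.4% and in 2 of 2, 2 of 4 and 1 of 5. A match of letters is a description and no measured binding site.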

How the data were processed

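Polyadenylated RNA of the 4 populations, 2 samples per population, went through Smart-seq2 and was sequenced as 50 bp reads, per the labels' protocols. CASAVA 1.8.4, Bowtie2 2.2.2 and the build mm9 appear in the submitters' processing notes; counter, strand setting and annotation release are not given in the sources. The authors deposited a count and an RPKM value for 29257 transcripts per library. The deposited RPKM equals the deposited count over transcript length and 1 total per library. Each symbol was represented by its row with the largest mean count. The matched gene models and sequences come from GENCODE (GRCm38), and coordinates of the files' own build were not used.

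The test was edgeR's two-sided robust quasi-likelihood F test (edgeR 4.0.16, R 4.3.3) on counts, with TMM scaling and filterByExpr at a minimum count of 10, in 1 fit of all 4 populations, with Benjamini-Hochberg adjustment over 13619 genes and a threshold of 0.05. The biological coefficient of variation over all genes was 0.526; residual degrees of freedom were 4 and prior ones 3.93 (median). The SE is the log2 fold change divided by the square root of F. Since the labels name no separate mice, p-values reflect only the spread between the deposited samples, which may be technical. The code was tested on simulated data.

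The members and lists were chosen with earlier results of these data known. Named were the 5 members and their families, list genes with an adjusted p under 0.05, and, per list and comparison of the design, up to 4 genes with the largest change among those with no overlap and a mean of 5 RPKM or more in the higher group. Further genes were named as markers, by likeness to a member (the 5 nearest) or after their values were seen. Alternatives were DESeq2 1.42.0, limma 3.58.1, other filters and scalings, a replicate block and leaving out libraries.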

Additional observations from a re-analysis of the deposited data

How the results depend on the processing

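The direction of Tcf7, Lef1, Tox and Tox2 stayed the same in all 4 comparisons under every alternative run; the calls did not. In ChILP against CLP the number of genes called, 3, was 0 with DESeq2 size factors, 263 with the DESeq2 Wald test, 32 and 19 with limma on log2(RPKM + 1) and log2(RPKM + 0.1), 63 with no filter, 15 with at least 5 RPKM in 2 libraries, 59 with only the 4 libraries compared, 31 with voom and quality weights, and 0 to 24 leaving out 1 library. Tcf7 passed the threshold with DESeq2 (6.63), limma on log2(RPKM + 1) (5.44), the 5 RPKM filter (6.63) and only the 4 libraries (6.59). Tox passed with DESeq2 (2.89), and Tox2 with DESeq2 (7.12), limma on log2(RPKM + 1) (5.61) and only the 4 libraries (7.01). Neither Tcf7 nor Tox2 passed with edgeR and no filter (adjusted p 0.15 and 0.33), edgeR and a replicate block (0.11 and 0.165) or voom (0.34 and 0.45). With limma on log2(RPKM + 0.1) their adjusted p was 0.0755 and 0.13. Leaving out 1 library gave 6.17 to 7.17 for Tcf7, 2.30 to 3.35 for Tox, 6.15 to 8.93 for Tox2, 1.86 to 2.29 for Lef1 and 0.03 to 0.26 for Tox4.

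In PD-1+ against CCR6+ cells the number called, 0, was 131 with DESeq2, 6 with limma on log2(RPKM + 0.1), 5 without replicate 2 of both, and 0 to 36 leaving out 1 library. DESeq2 called Tcf7 (2.98), Tox (2.77) and Tox2 (4.06). Leaving out 1 library gave 1.49 to 3.74 for Tcf7, 1.43 to 3.51 for Tox, 2.59 to 4.83 for Tox2, 0.06 to 2.20 for Lef1 and -0.281 to 0.0278 for Tox4, which changed sign without PD-1+ replicate 1.

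Against CLP, PD-1+ cells had 995 genes called in the reported fit, 2288 with DESeq2, 1624 and 613 with limma at pseudocounts of 1 and 0.1, 208 with only the 4 libraries, 414 without replicate 2 of both captured populations, and 8 to 815 leaving out 1 library. CCR6+ cells had 1549, and 2767 with DESeq2, 2566 with limma on log2(RPKM + 1), 2481 with voom and 83 to 770 leaving out 1 library. Lef1 lost its call in PD-1+ cells in 8 of 15 alternatives, Tox in 5, Tcf7 and Tox2 in 2 each, and Tcf7 in CCR6+ cells in 4. Tox4, near 0 throughout, changed sign in CCR6+ against CLP with DESeq2 size factors (0.0322), the DESeq2 test (0.0318), only the 4 libraries (0.0177) and without replicate 2 of both (0.00375), and leaving out 1 library gave -0.139 to 0.0706 there and -0.319 to 0.0167 in PD-1+ against CLP. The cause of these changes was not tested, except that fewer libraries or genes entered some fits.

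Deviations of same-numbered libraries had correlations of 0.094 between CLP and ChILP and 0.080 between PD-1+ and CCR6+ cells. With 2 libraries per population these values cannot decide whether the replicate numbers pair the samples. With a replicate block 0 genes were called in ChILP against CLP and 632 in PD-1+ against CLP, where Lef1 lost its call (adjusted p 0.081). With the block and only the 4 libraries, chosen after seeing the data, 112 genes were called in ChILP against CLP, Tcf7 (6.64), Tox (2.84) and Tox2 (7.18) among them.

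Depth limits the CLP values of Tcf7 and Tox2, which rest on 49 and 30 reads in all, and 2 libraries per population limit every test.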
